A study of Mus musculus with 30 samples.

Results

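The genes described here build, copy and mend DNA. They comprise 48 genes chosen by name, from origin licensing and the replicative polymerases to the mismatch, recombination and end-joining factors used in antibody class switching, and all 48 were among the 12183 genes tested on the arrays. Each was read by 1 probe set (a group of short array probes against 1 transcript), taken from the sets annotated to a single gene symbol as the one with the highest mean signal. Expression was measured on 30 Affymetrix whole-genome mouse arrays in 10 groups of 3, where the replicates of a group came from different mice. Resting mature B cells were enriched from spleen, so the day 0 cells had seen no stimulus, and the others were cultured for 1 or 3 days on CD40 ligand and the cytokines IL-2, IL-4 and IL-5. The cells called KO came from Irf4-/- mice that carry an Irf4 gene which doxycycline (DOX) switches on, and the cells called WT came from Irf4+/+ mice. There are 7 KO groups, at day 0 and then at days 1 and 3 with zero, low (16 ng/mL) or high (100 ng/mL) DOX. The 3 WT groups are from days 0, 1 and 3 and carry no DOX label, so the KO cultures with DOX differ from WT in the drug as well as in the gene. The strain is labelled C57BL/6, B1-8i in all 10 groups, and the sources used here do not name the promoter or cell types that drive the inducible gene.

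A cell copies its genome once per division. The origin recognition complex (Orc), Cdc6 and Cdt1 load the Mcm helicase onto origins, the Cdc45 and GINS proteins switch it on, and polymerases alpha, delta and epsilon then copy both strands with the Pcna clamp. Many of these genes are targets of E2F transcription factors, which are released from pocket proteins when a resting lymphocyte is driven to divide. Activated B cells also need some of these enzymes to change their antibody genes: Ung removes the uracil left by the deaminase AID, mismatch repair widens the lesion, and end joining seals the breaks of class switching. Irf4 is the transcription factor whose level steers activated B cells toward plasma cells.

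Values are log2(intensity + 16), where intensity is the normalized signal of a probe set, and a difference of 1 unit is a 2-fold change on that scale, which understates the change of dim genes. Values of different genes come from different probes and are not compared as levels. A gene is said to have changed when limma's test, fitted to all 30 arrays and adjusted by Benjamini-Hochberg over the 12183 genes, gave an adjusted p under 0.05. A difference is given with its standard error (SE). With 3 arrays in each group the smallest p of an exact permutation test is 0.1, so every call uses the spread that limma pools over groups.

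The 30 arrays had median intensities of 171.4 to 199.7, and their number limits the precision. Of the 2 Irf4 probe sets, the one that followed the drug read 7.68, 7.34 and 7.49 in KO zero DOX, 13.09, 12.94 and 12.99 in KO low DOX and 13.66, 13.56 and 13.53 in KO high DOX cells at day 3. At day 1 it read 7.84, 10.77 and 7.80 with zero, 11.17, 7.69 and 10.89 with low and 13.10, 12.68 and 12.85 with high DOX, so the library labelled KO zero DOX day 1 replicate 2 and the library labelled KO low DOX day 1 replicate 2 went against their labels. Leaving both out moved 1 of 16 counts of members that rest on them by over 1.5 times, and that count is named below. In WT cells that set read 7.96, 8.07 and 8.05 at day 0, 7.92, 7.89 and 7.64 at day 1 and 7.35, 7.39 and 7.23 at day 3. The second Irf4 set read 12.75, 12.78 and 12.41 in KO and 13.14, 13.17 and 13.22 in WT cells at day 0. It read 12.20, 11.96 and 11.99 in KO zero DOX and 11.76, 11.66 and 11.74 in WT cells at day 1, and 11.44, 10.98 and 10.89 in KO zero DOX and 10.88, 10.82 and 10.77 in WT cells at day 3. On this set the KO arrays without DOX were below WT at day 0 and above WT at days 1 and 3, without overlap. No source used here says whether either set lies in the deleted part of the gene. KO day 0 replicates 2 and 3 had the lowest array weights in their group (0.423 and 0.254). In every KO group replicates 1 and 2 were male and replicate 3 female by Xist, while all WT arrays were female.

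The B cell label was checked against 6 tested B cell markers. Their summed intensity was 39200 to 71000 over the KO groups and 42700 to 59800 over the WT groups. The value of 71000 came from KO zero DOX day 3, whose median was 60400. There Cd79a read 13.90 on replicate 2, against 12.48 and 12.53 on replicates 1 and 3. Transcripts of other cells differed between the groups. The summed intensity of 12 tested myeloid markers was 6870 to 12900 in KO and 3280 to 3560 in WT cells at day 0, 4380 to 6110 in KO zero DOX and 2040 to 2270 in WT cells at day 1, and 6510 to 11400 in KO zero DOX and 3160 to 3370 in WT cells at day 3. The 4 tested NK cell markers summed to 2810 to 3580 in KO and 998 to 1320 in WT cells at day 0. In a bulk sample fewer cells of a type and less RNA per cell cannot be told apart, which holds for each result below.

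The regulatory sequence in front of these genes is shown for 5 members that the results turn on. RefSeq promoter windows of 300 bases (250 before to 50 after the start of transcription, build GRCm38.p6) were at hand for 41 of the 48 members, in 47 windows. Searched on both strands, the E2F letters TTTCCCGC, TTTGGCGC, TTTCGCGC or TTTGCCGC were found in the windows of 15 members, which is 31.9% of their windows against 2.26% of all 32851 windows in the table. CCAAT, the letters bound by NF-Y, was found in 55.3% of the members' windows and in 37.4% of all. TTTGAA, part of the element used by genes of late division, was found in 8.51% against 17.9%, and the Ets-IRF composite element in 2.13% (Brca1 alone) against 2.72%. The windows below run 5′ to 3′ on the gene's strand with the E2F letters in capitals, on whichever strand they were read. Cdc6 lies at chr11:98907901-98908200 (plus strand), Orc1 at chr4:108579204-108579503 (plus), Mcm5 at chr8:75109259-75109558 (plus), Pole2 at chr12:69228141-69228440 (minus) and Atm at chr9:53536622-53536921 (minus).
Cdc6: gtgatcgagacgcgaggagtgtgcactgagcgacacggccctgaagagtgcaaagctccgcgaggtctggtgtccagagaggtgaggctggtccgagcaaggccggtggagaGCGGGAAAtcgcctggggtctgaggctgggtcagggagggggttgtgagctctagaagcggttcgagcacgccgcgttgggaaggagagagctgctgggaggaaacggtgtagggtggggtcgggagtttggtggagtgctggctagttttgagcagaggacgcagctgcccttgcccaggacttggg
Orc1: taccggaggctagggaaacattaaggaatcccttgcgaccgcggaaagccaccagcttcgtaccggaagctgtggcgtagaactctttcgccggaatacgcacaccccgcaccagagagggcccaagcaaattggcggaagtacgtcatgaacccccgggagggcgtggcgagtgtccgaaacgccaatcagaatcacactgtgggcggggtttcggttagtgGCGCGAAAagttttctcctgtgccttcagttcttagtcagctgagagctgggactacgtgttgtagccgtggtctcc
Mcm5: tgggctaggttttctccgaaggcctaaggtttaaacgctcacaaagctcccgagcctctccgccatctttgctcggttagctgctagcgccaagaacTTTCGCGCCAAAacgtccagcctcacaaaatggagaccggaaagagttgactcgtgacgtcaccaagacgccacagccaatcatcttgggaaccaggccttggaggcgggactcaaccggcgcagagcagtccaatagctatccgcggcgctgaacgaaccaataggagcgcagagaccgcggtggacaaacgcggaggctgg
Pole2: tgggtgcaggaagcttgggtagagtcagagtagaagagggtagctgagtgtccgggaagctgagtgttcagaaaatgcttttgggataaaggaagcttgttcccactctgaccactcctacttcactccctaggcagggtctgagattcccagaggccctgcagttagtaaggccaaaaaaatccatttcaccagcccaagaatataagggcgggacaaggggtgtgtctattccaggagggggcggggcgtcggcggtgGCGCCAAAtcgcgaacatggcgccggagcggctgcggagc
Atm: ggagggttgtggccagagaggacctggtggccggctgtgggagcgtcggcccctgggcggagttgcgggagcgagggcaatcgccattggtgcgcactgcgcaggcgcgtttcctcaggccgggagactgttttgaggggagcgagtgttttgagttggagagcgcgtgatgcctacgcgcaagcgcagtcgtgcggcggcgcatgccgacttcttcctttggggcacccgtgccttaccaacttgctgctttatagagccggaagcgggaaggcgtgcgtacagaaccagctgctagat
The first matched base lay 138 bases before the start in Cdc6 and 27 before it in Orc1. Mcm5 held a pair of overlapping matches, beginning 153 and 149 bases before the start. In Pole2 the match began at base 11 after the start, and the Atm window held none of the letters. A match is a description of letters, not a bound site. The median log2 difference of WT day 1 minus WT day 0 was 1.74 in the 15 members with a match and 1.67 in the 26 whose windows held none, a description with no test.

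**Figure D1:**
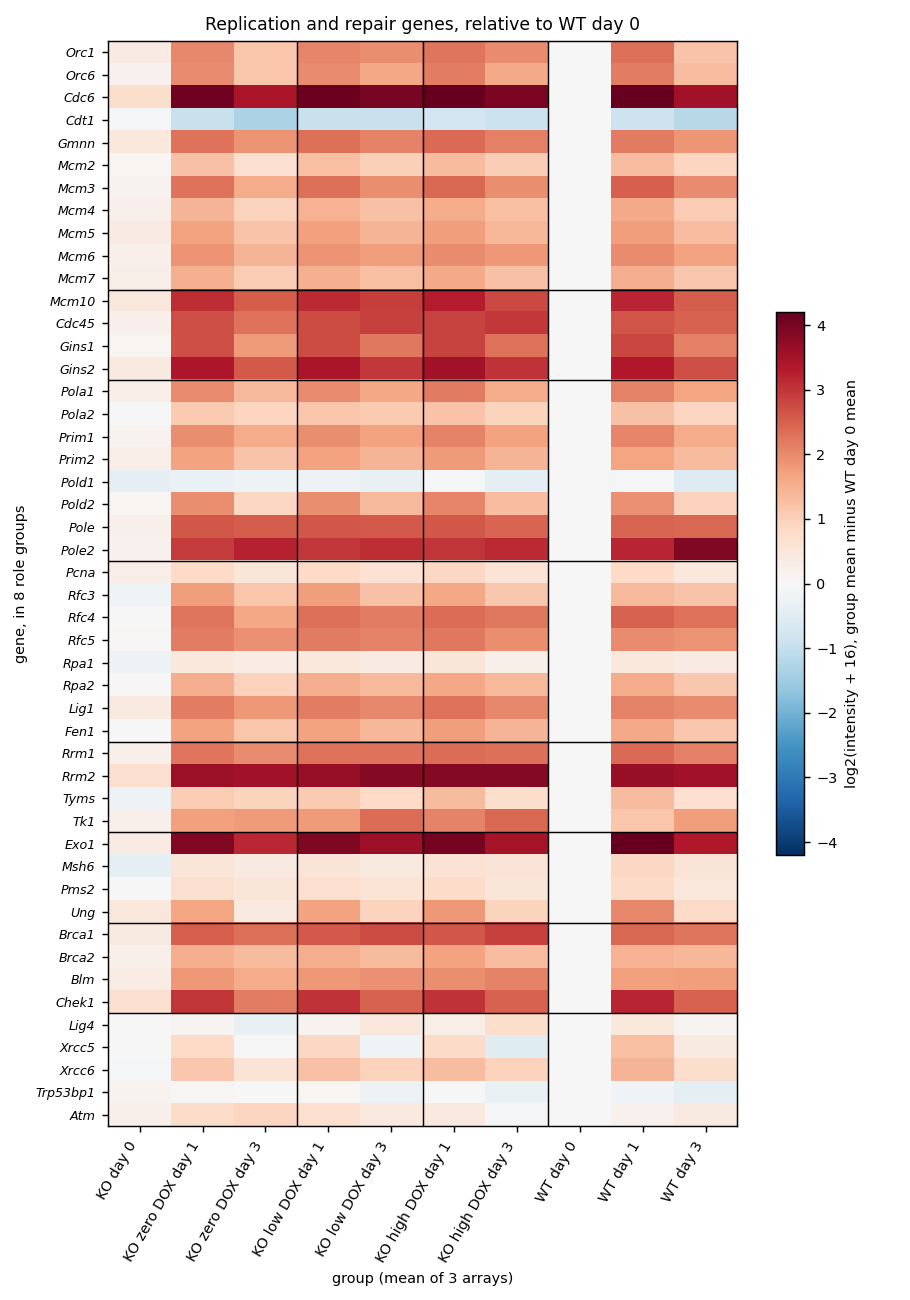
Mean log2(intensity + 16) of each of the 48 genes (rows, in 8 role groups) in each of the 10 groups (columns, 3 arrays each), as the difference from the WT day 0 mean. Red is higher and blue lower than WT day 0; nearly all rows turn red at day 1 in KO and WT columns alike, Cdc6, Exo1 and Rrm2 most strongly, and Cdt1 turns blue.

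The first comparison asks which of these genes change when resting B cells are stimulated for a day. In KO zero DOX cells 44 of 48 were higher at day 1 than at day 0 and 1 was lower, where 39.8% of all genes were higher and 30.1% lower. In WT cells 45 were higher and 2 lower, where 33.9% of all genes were higher and 47.6% lower. The 44 that rose in KO cells were all among the 45 that rose in WT cells, which adds Lig4. The median log2 difference of the members was 1.68 in KO cells, against 0.06 over all genes, and 1.83 in WT cells, against -0.15 over all genes. In WT cells 39 members changed upward by at least 2-fold, a log2 difference of 1. The share of all genes at 2-fold is not given here. A difference of 1 lies between the upper quartile (0.40) and the 95th percentile (1.51) of all genes. In the same comparison 31 members lay above the 95th percentile of all genes (1.51). Without overlap between the days, 44 members lay above and 1 below day 0 in KO cells, where 71.4% of all genes did not overlap. In WT cells 45 lay above and 1 below, where 85.9% of all genes did not overlap. Centring each array on its median moved all genes by 0.16 in the WT comparison and by -0.01 in the KO comparison, so that the members' medians became 1.67 in KO and 1.99 in WT cells.

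Among the licensing genes, 10 of 11 rose in both genotypes. Cdc6, the ATPase that helps load the helicase, read 7.64, 8.23 and 7.33 at day 0, 11.11, 11.05 and 11.07 at day 1 and 10.55, 10.23 and 10.45 at day 3 in KO zero DOX cells. In WT cells it read 6.83, 6.63 and 7.51 at day 0, 11.19, 11.23 and 11.08 at day 1 and 10.56, 10.41 and 10.58 at day 3. The days did not overlap in either genotype, and the lowest values were those of unstimulated cells. Cdc6 rose by 3.35 ± 0.17 (SE) in KO cells, 10.2-fold, and by 4.18 ± 0.17 in WT cells, 18.1-fold (adjusted p = 7.6e-15 and 1.1e-16).

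Mcm5, a subunit of the Mcm helicase ring, read 11.87, 12.15 and 11.74 at day 0, 13.30, 13.27 and 13.23 at day 1 and 12.83, 12.69 and 12.75 at day 3 in KO zero DOX cells. The WT arrays read 11.49, 11.52 and 11.69 at day 0, 13.30, 13.33 and 13.30 at day 1 and 12.90, 12.80 and 12.89 at day 3. Day 1 was highest in both genotypes, with no overlap between days. The rise was 1.35 ± 0.069 in KO and 1.74 ± 0.069 in WT cells, and the other Mcm subunits of the ring rose by between 1.16 (Mcm2) and 2.12 (Mcm3) in KO cells and between 1.30 (Mcm2) and 2.51 (Mcm3) in WT cells.

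Cdt1, the loading factor that geminin holds in check, ran the other way. It read 12.74, 12.69 and 12.88 at day 0, 11.92, 11.83 and 11.94 at day 1 and 11.52, 11.43 and 11.52 at day 3 in KO zero DOX cells. Its WT values were 12.85, 12.82 and 12.82 at day 0, 11.94, 11.97 and 11.99 at day 1 and 11.60, 11.62 and 11.79 at day 3. Its 3 days stood apart in both genotypes, with day 0 highest. Cdt1 differed by -0.87 ± 0.05 in KO and -0.86 ± 0.05 in WT cells on the first day (adjusted p = 7.5e-14 and 8.6e-14), while Gmnn, which encodes geminin, rose by 1.85 in KO and 2.18 in WT cells.

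All 4 genes of helicase activation rose, with medians of 2.64 in KO and 3.00 in WT cells. Gins1, a GINS subunit, read 8.10, 8.05 and 8.05 at day 0, 10.74, 10.68 and 10.73 at day 1 and 9.81, 9.66 and 9.85 at day 3 in KO zero DOX cells. Among WT cells the values were 7.92, 7.96 and 8.12 at day 0, 10.76, 10.82 and 10.84 at day 1 and 10.14, 10.05 and 10.16 at day 3. No day overlapped another in either genotype. Gins1 rose by 2.65 ± 0.054 in KO and 2.81 ± 0.054 in WT cells, Gins2 by 3.05 and 3.35, and Mcm10, which helps activate the helicase, by 2.63 and 3.20. Cdc45 rose by 2.52 in KO and 2.63 in WT cells, but a second Cdc45 probe set went the other way in WT cells (-0.49, adjusted p = 1.7e-07 over all tested sets).

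Of 8 polymerase and primase genes, 7 rose in both genotypes. Pole2, an accessory subunit of polymerase epsilon, read 8.48, 8.59 and 8.36 at day 0, 11.29, 11.16 and 11.29 at day 1 and 11.63, 11.32 and 11.67 at day 3 in KO zero DOX cells. WT cells gave 8.24, 8.31 and 8.36 at day 0, 11.48, 11.50 and 11.57 at day 1 and 12.21, 12.17 and 12.15 at day 3. Unlike most members it was highest at day 3 in both genotypes, with no overlap between days. The exception on the first day was Pold1, the catalytic subunit of polymerase delta, with differences of 0.11 (adjusted p = 0.33) in KO and -0.04 (adjusted p = 0.72) in WT cells, while Pold2, its partner subunit, rose by 1.87 and 1.91.

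The 8 genes of the clamp, its loader, single-strand binding and flap joining all rose in both genotypes. Pcna, the sliding clamp, read 13.50, 13.43 and 13.33 at day 0, 13.99, 13.97 and 13.99 at day 1 and 13.71, 13.66 and 13.66 at day 3 in KO zero DOX cells. In WT cells it read 13.08, 13.13 and 13.25 at day 0, 13.97, 14.01 and 14.02 at day 1 and 13.59, 13.54 and 13.62 at day 3. Day 1 was highest in both without overlap. Its rise of 0.56 ± 0.043 in KO and 0.85 ± 0.043 in WT cells was among the small ones of this group, and the clamp loader gene Rfc4 rose by 2.27 and 2.49.

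All 4 genes of deoxynucleotide supply rose. Rrm2, the regulated subunit of ribonucleotide reductase, read 9.28, 10.08 and 9.13 at day 0, 12.49, 12.50 and 12.41 at day 1 and 12.41, 12.26 and 12.41 at day 3 in KO zero DOX cells. The WT arrays read 8.55, 8.57 and 9.40 at day 0, 12.51, 12.48 and 12.48 at day 1 and 12.37, 12.21 and 12.47 at day 3. Day 0 was low in both, with 1 array of each genotype well above its mates. Rrm2 rose by 2.97 ± 0.18 in KO and 3.65 ± 0.18 in WT cells.

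Tk1, the thymidine kinase of the salvage route, read 9.22, 9.35 and 9.19 at day 0, 11.19, 10.84 and 10.36 at day 1 and 11.13, 10.77 and 10.61 at day 3 in KO zero DOX cells. Its WT values were 8.98, 8.98 and 9.21 at day 0, 10.14, 10.24 and 10.28 at day 1 and 10.76, 10.78 and 10.90 at day 3. WT arrays climbed at each step without overlap, while the KO arrays of days 1 and 3 overlapped and were widely spread, replicate 1 highest and replicate 3 lowest in each of the 6 cultured KO groups. The first-day rise was 1.54 ± 0.18 in KO and 1.16 ± 0.18 in WT cells. Tyms, which makes thymidylate, rose by 1.29 in KO and 1.32 in WT cells by the chosen probe set, but another Tyms set fell in WT cells (-1.17, adjusted p = 1.5e-09 over all tested sets).

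The 4 mismatch and base excision repair genes rose in both genotypes. Exo1, the exonuclease of mismatch repair, read 6.65, 6.73 and 6.55 at day 0, 10.24, 10.17 and 10.16 at day 1 and 9.67, 9.37 and 9.38 at day 3 in KO zero DOX cells. Among WT cells the values were 6.04, 6.35 and 6.54 at day 0, 10.43, 10.52 and 10.49 at day 1 and 9.70, 9.65 and 9.71 at day 3. The days did not overlap, and Exo1 rose by 3.55 ± 0.09, 11.7-fold, in KO and by 4.17 ± 0.09, 18-fold, in WT cells.

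Ung, the uracil glycosylase that acts after AID, read 10.04, 9.85 and 9.74 at day 0, 10.92, 11.04 and 11.18 at day 1 and 9.91, 9.63 and 9.82 at day 3 in KO zero DOX cells. WT cells gave 9.30, 9.28 and 9.59 at day 0, 11.52, 11.44 and 11.29 at day 1 and 10.27, 10.19 and 10.14 at day 3. By day 3 the KO arrays overlapped KO day 0, with replicate 2 below all of them, while the WT arrays stayed above WT day 0. Ung rose by 1.17 ± 0.10 in KO and 2.02 ± 0.10 in WT cells on the first day.

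Msh6, which recognizes mismatches, read 10.01, 10.16 and 10.36 at day 0, 11.02, 10.94 and 11.25 at day 1 and 10.95, 10.80 and 11.10 at day 3 in KO zero DOX cells. In WT cells it read 10.55, 10.59 and 10.53 at day 0, 11.34, 11.38 and 11.52 at day 1 and 11.11, 11.05 and 11.15 at day 3. Its rise was under 2-fold in both genotypes, 0.89 in KO and 0.85 in WT cells. Pms2, a nicking partner in mismatch repair, rose by 0.66 and 0.81, but 1 of its other probe sets fell in WT cells (-0.59, adjusted p = 2.3e-06 over all tested sets).

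All 4 recombination and checkpoint genes rose. Chek1, the kinase that restrains division while replication is stalled, read 8.40, 8.66 and 7.93 at day 0, 10.64, 10.65 and 10.66 at day 1 and 9.95, 9.68 and 9.74 at day 3 in KO zero DOX cells. The WT arrays read 7.59, 7.40 and 7.95 at day 0, 10.81, 10.86 and 10.85 at day 1 and 10.24, 9.96 and 10.23 at day 3. Chek1 peaked at day 1 in both without overlap, after rises of 2.32 ± 0.13 in KO and 3.19 ± 0.13 in WT cells.

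Brca1, a central factor of recombinational repair, read 8.06, 8.45 and 7.92 at day 0, 10.34, 10.18 and 10.29 at day 1 and 10.23, 9.95 and 10.06 at day 3 in KO zero DOX cells. Its WT values were 7.68, 7.65 and 7.97 at day 0, 10.22, 10.12 and 10.15 at day 1 and 9.98, 9.86 and 10.18 at day 3. Days 1 and 3 overlapped in both genotypes. Brca1 rose by 2.13 in KO and 2.40 in WT cells on the first day, and its later differences of -0.19 and -0.16 did not pass the test.

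The 5 end-joining and break-response genes were the least uniform. Xrcc5, the larger Ku subunit that binds broken ends, read 9.15, 9.04 and 9.18 at day 0, 10.00, 9.89 and 10.01 at day 1 and 9.19, 9.01 and 9.15 at day 3 in KO zero DOX cells. Among WT cells the values were 9.10, 9.16 and 9.17 at day 0, 10.35, 10.47 and 10.38 at day 1 and 9.59, 9.60 and 9.40 at day 3. KO day 3 arrays overlapped KO day 0, whereas WT day 3 arrays stayed above WT day 0. Xrcc5 rose by 0.84 ± 0.076 in KO and 1.26 ± 0.076 in WT cells on the first day, and Xrcc6, the other Ku subunit, by 1.20 and 1.41.

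Atm, the kinase that signals double-strand breaks, read 10.73, 10.69 and 10.70 at day 0, 11.33, 11.29 and 11.15 at day 1 and 11.36, 11.40 and 11.48 at day 3 in KO zero DOX cells. WT cells gave 10.48, 10.47 and 10.55 at day 0, 10.75, 10.65 and 10.67 at day 1 and 10.93, 10.67 and 11.06 at day 3. The KO arrays lay above the WT arrays at every day, without overlap. The day 0 difference did not pass the test (0.21, adjusted p = 0.083). Atm rose by 0.55 ± 0.09 in KO cells on the first day and by 0.20 ± 0.09 in WT cells, and the WT call (adjusted p = 0.049) was lost under 9 of 18 alternatives.

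Trp53bp1, whose protein protects broken ends during class switching, read 11.23, 11.16 and 11.07 at day 0, 11.10, 11.03 and 11.08 at day 1 and 11.17, 11.01 and 10.93 at day 3 in KO zero DOX cells. In WT cells it read 11.06, 11.10 and 10.91 at day 0, 10.84, 10.89 and 10.91 at day 1 and 10.54, 10.59 and 10.75 at day 3. It was highest at day 0 in both. The first-day difference was -0.08 (adjusted p = 0.23) in KO and -0.14 (adjusted p = 0.034) in WT cells, and centring the arrays turned the WT value to 0.02. Lig4, the ligase of end joining, differed by 0.11 (adjusted p = 0.51) in KO cells and rose by 0.43 (adjusted p = 0.0081) in WT cells.

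**Figure D2:**
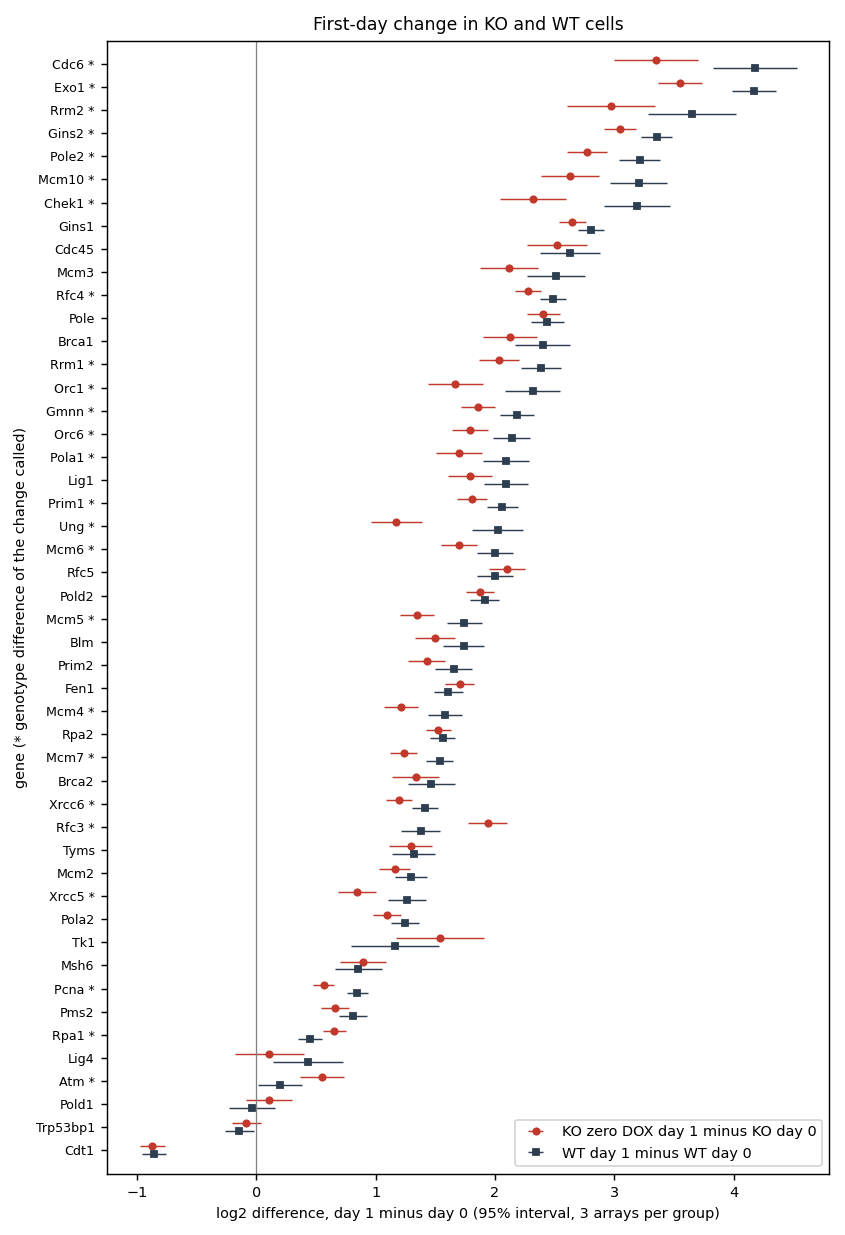
Log2 difference of day 1 minus day 0 for each of the 48 genes in KO zero DOX cells (red circles) and WT cells (dark squares), with 95% intervals from limma; asterisks mark genes whose change differed between genotypes. Most genes lie well to the right of 0 in both, Cdt1 lies to the left, and the KO circles of Cdc6, Exo1, Rrm2, Chek1 and Ung lie left of the WT squares.

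The size of the first-day change was then compared between genotypes. The change was smaller in KO than in WT cells for 22 members and larger for 3, where 11.5% of all genes had a lower and 32.4% a higher change in KO cells. The members' median difference of changes was -0.25, against 0.13 over all genes. Centring the arrays, which moved all genes by -0.17, gave -0.42 for the members and -0.04 for all genes. The largest were Chek1 (-0.87 ± 0.19), Ung (-0.85 ± 0.14), Cdc6 (-0.83 ± 0.24), Rrm2 (-0.68 ± 0.25), Orc1 (-0.65 ± 0.16) and Exo1 (-0.62 ± 0.13), with adjusted p of 0.001, 0.00011, 0.0078, 0.033, 0.0022 and 0.00064. A second Orc1 probe set was not called between genotypes at day 0 (0.06, adjusted p = 0.62). Nor was it called at day 1 (0.02, adjusted p = 0.87, over all tested sets). Rfc3, a clamp loader subunit, changed more in KO cells (0.56 ± 0.11, adjusted p = 0.00046), as did Atm (0.36 ± 0.13) and Rpa1 (0.20 ± 0.067), which binds single-stranded DNA. Of the 22, 16 were also higher in KO than in WT cells at day 0, and both comparisons use the same day 0 arrays. Centring left 1 gene with a larger change in KO cells. The count of 22 ran from 16 (without KO day 0 replicate 2) to 27 (without KO day 0 replicate 3), and the call for Rrm2 was lost under 10 of 26 alternatives. Without the 2 arrays that go against their labels the calls for Rrm2, Mcm6 and Xrcc6 were lost, and the calls for Atm and Rpa1 were lost with centring or without KO zero DOX day 1 replicate 1.

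Between days 1 and 3 most members fell again. In KO zero DOX cells 37 were lower at day 3 than at day 1 and 1 was higher, where 26.7% of all genes were lower and 25.9% higher. In WT cells 36 were lower and 2 higher, where 26.2% of all genes were lower and 43.3% higher. The 32 genes that fell in both make up 32 of the 37 in KO and 32 of the 36 in WT cells, among them all 11 licensing genes. The members' median difference was -0.43 in KO cells, against -0.02 over all genes, and -0.38 in WT cells, against 0.12 over all genes. Without overlap, 2 members lay above and 37 below day 1 in KO cells, where 58% of all genes did not overlap. In WT cells 2 lay above and 41 below, where 79.2% of all genes did not overlap. By group means, 42 members were highest at day 1 in KO zero DOX and 41 in WT cells. Of these, Ung, Lig4 and Xrcc5 were back at or below their day 0 mean by day 3 in KO cells, and none was in WT cells.

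Ung differed by -1.26 ± 0.10 in KO and -1.21 ± 0.10 in WT cells (adjusted p = 3.3e-10 and 3.6e-10). Pold2 differed by -1.09 ± 0.058 in KO and -0.94 ± 0.058 in WT cells. Orc1, the origin-binding ATPase, read 8.41, 8.00 and 8.25 at day 3 and 9.08, 9.02 and 9.13 at day 1 in KO zero DOX cells, and 8.26, 8.11 and 8.33 at day 3 and 9.36, 9.43 and 9.31 at day 1 in WT cells. Its days stood apart in both, with differences of -0.85 in KO and -1.13 in WT cells. Gins1 was lower too (-0.94 in KO and -0.69 in WT cells), as were Exo1 (-0.72 and -0.79), Chek1 (-0.86 and -0.70) and Xrcc5 (-0.85 and -0.87). Pole2 rose by 0.29 ± 0.082 in KO and 0.66 ± 0.082 in WT cells, while Tk1 rose by 0.59 ± 0.18 in WT cells and differed by 0.04 (adjusted p = 0.87) in KO cells. The rise of Pole2 in KO cells was no longer called when only the 2 groups compared entered the fit.

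The later change differed between genotypes in few members: 2 had a higher and 4 a lower change in KO cells, where 9% and 20.2% of all genes did. Pold1 differed by 0.56 ± 0.13 and Tyms by 0.45 ± 0.12, both higher in KO cells (adjusted p = 0.0037 and 0.0083). Rfc4 (-0.41 ± 0.075), Rfc3 (-0.40 ± 0.11), Pole2 (-0.37 ± 0.12) and Gins1 (-0.25 ± 0.076) had a lower change in KO cells. Centring the arrays, which moved all genes by 0.15, turned these counts to 8 higher and 1 lower. Array weights gave 7 higher and 11 lower, and without KO zero DOX day 3 replicate 2 the calls for Pole2 and Gins1 were lost.

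With DOX most members were again lower at day 3. At low DOX 26 were lower at day 3 than at day 1 and 1 was higher, where 24.5% of all genes were lower and 20.9% higher. At high DOX 34 were lower and 1 higher, where 27% of all genes were lower and 23% higher. The members' medians were -0.22 at low and -0.30 at high DOX. Xrcc5 had the largest negative difference at both doses (-1.04 at low and -1.30 at high DOX), while Tk1 rose by 0.59 at low DOX, a call lost without KO low DOX day 1 replicate 3, and Lig4 by 0.46 at high DOX. With the replicate number as a block, since the numbers pair the KO arrays, 2 members were higher at each dose.

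Genotype at rest was the next question. At day 0, 21 members were higher in KO than in WT cells and 3 were lower, where 13.1% of all genes were higher and 18.4% lower, and the members' median difference was 0.20, against -0.05 over all genes. Cdc6 (0.74 ± 0.17, adjusted p = 0.0018), Chek1 (0.68 ± 0.13, adjusted p = 0.00046), Rrm2 (0.66 ± 0.18, adjusted p = 0.0069) and Ung (0.48 ± 0.10, adjusted p = 0.00092) had the largest positive differences. Msh6 (-0.38), Pold1 (-0.38) and Rpa1 (-0.23) were lower. Pold1 read 10.79, 11.09 and 11.24 in KO and 11.48, 11.53 and 11.23 in WT cells, which overlapped, whereas Msh6 did not overlap. For Cdc6, Chek1 and Rrm2 the groups overlapped, and KO replicate 2 and WT replicate 3 stood above their mates. Leaving out KO day 0 replicate 2, or WT day 0 replicate 1 or 2, ended the call for Rrm2, and Exo1 was lost without WT day 0 replicate 1. Ung, Mcm5 and Pcna did not overlap between genotypes. Without overlap, 11 members lay above and 4 below WT at day 0, where 36.1% of all genes did not overlap.

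The day 0 calls lean on the shared estimate of the spread: with only the 6 day 0 arrays in the fit, 3 members were higher and 1 lower. Without WT day 0 replicate 1 the higher count was 13, and without KO day 0 replicate 3 it was 25. In the same arrays 9 of 12 myeloid, 3 of 4 NK cell, 3 of 6 T cell, 2 of 4 megakaryocyte and platelet, 2 of 3 dendritic cell and 1 of 3 erythroid markers were also higher and 2 of 5 plasma cell markers lower in KO cells at day 0, the erythroid sum at 1070 to 1620 in KO against 631 to 870 in WT cells. Their part in the result was not tested.

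At day 1, 5 members were higher and 10 lower in KO zero DOX than in WT cells, where 33.9% of all genes were higher and 15.7% lower. The members' median was -0.08, against 0.07 over all genes. Tk1 (0.58 ± 0.18), Atm (0.56 ± 0.09), Rfc3 (0.38 ± 0.078), Trp53bp1 (0.19 ± 0.06) and Pole (0.17 ± 0.066), the catalytic subunit of polymerase epsilon, were higher. Rfc3 read 11.18, 11.35 and 11.04 in KO zero DOX and 10.80, 10.90 and 10.74 in WT cells, without overlap. Xrcc5 (-0.44), Ung (-0.37), Msh6 (-0.34), Orc1 (-0.29), Exo1 (-0.29), Pole2 (-0.27), Xrcc6 (-0.27), Tyms (-0.24), Rfc4 (-0.23) and Pold1 (-0.23) were lower. By other probe sets, over all tested sets, Orc1 (0.02, adjusted p = 0.87) and Pold1 (-0.06, adjusted p = 0.61) were not called. Other sets of Pole2, Rfc3 and Rfc4 were called in the same direction. Mcm3 (-0.55, adjusted p = 8.3e-05) and Rpa2 (-0.34, adjusted p = 0.00016), not called by the chosen set, were lower by another, among others. The counts thus rest on the chosen sets. Without overlap between the groups, 9 members lay above and 22 below WT, where 66.1% of all genes did not overlap.

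The day 1 count is sensitive to the scaling. Centring the arrays, which moved all genes by -0.14, gave 2 higher and 28 lower, and array weights gave 8 higher and 22 lower. Leaving out the KO zero DOX day 1 array whose Irf4 reading goes against its label ended the calls of Orc1, Pole2 and Pole, and leaving out KO zero DOX replicate 1 ended that of Tk1 and left 3 members higher. Of the markers of other cells, 11 of 12 myeloid, 5 of 6 T cell, 2 of 4 NK cell, 2 of 3 erythroid, 1 of 4 megakaryocyte and platelet, 1 of 3 dendritic cell and 1 of 6 B cell markers were higher in KO cells, and 3 of 5 plasma cell markers lower. The sums were 1690 to 1930 in KO zero DOX and 1210 to 1250 in WT cells for T cells, 906 to 1130 in KO zero DOX and 488 to 731 in WT cells for NK cells, 889 to 1030 in KO zero DOX and 709 to 759 in WT cells for megakaryocytes and platelets, and 6970 to 7250 in KO zero DOX and 9530 to 11200 in WT cells for plasma cells. Their part in the result was not tested.

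At day 3, 3 members were higher and 14 lower in KO zero DOX than in WT cells, where 19% of all genes were higher and 15.8% lower. The members' median was -0.11, against 0.00 over all genes. Without overlap, 5 members lay above and 18 below WT, where 46.3% of all genes did not overlap. Rfc4 read 10.56, 10.48 and 10.53 in KO zero DOX and 11.17, 11.14 and 11.18 in WT cells, a difference of -0.64 ± 0.053 (adjusted p = 2.5e-09) with every KO array below every WT array. Pole2 differed by -0.64 ± 0.082 (adjusted p = 1.9e-06), also without overlap. Lig4 read 7.91, 7.85 and 7.71 in KO zero DOX and 8.27, 8.16 and 8.31 in WT cells, a difference of -0.43 (adjusted p = 0.022).

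Xrcc5 (-0.42), Ung (-0.41), Mcm3 (-0.41), Chek1 (-0.35), Gins1 (-0.34), Pola1 (-0.29), the catalytic subunit of polymerase alpha, and Mcm6 (-0.25) were lower too, and 4 further members lay between -0.23 and -0.16. Atm (0.53 ± 0.09), Trp53bp1 (0.41 ± 0.06) and Pold1 (0.33 ± 0.094) were higher. Orc1 and Cdc6 differed by -0.01 (adjusted p = 0.94) and -0.11 (adjusted p = 0.67), with 95% intervals of -0.24 to 0.22 and -0.45 to 0.24. The Mcm3 call was lost without KO zero DOX replicate 2 and the Pold1 call without WT replicate 2. Without WT day 3 replicate 1 the lower count was 8, and the calls for Mcm6, Pola1, Chek1 and Lig4 among others were lost. Beside these, 10 of 12 myeloid, 4 of 4 NK cell, 2 of 4 megakaryocyte and platelet and 3 of 6 T cell markers were higher in KO cells, with 1 B cell and 1 dendritic cell marker. In KO cells 1 T cell, 1 dendritic cell and 5 of 5 plasma cell markers were lower. The sums were 4560 to 8880 in KO zero DOX and 1270 to 1940 in WT cells for NK cells, 2480 to 3470 in KO zero DOX and 931 to 1360 in WT cells for megakaryocytes and platelets, 2150 to 2360 in KO zero DOX and 1650 to 1790 in WT cells for T cells, and 7250 to 8330 in KO zero DOX and 24800 to 25700 in WT cells for plasma cells. Their part in the result was not tested.

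The KO cultures with DOX were next read against KO zero DOX cells of the same day. They differ in the drug as well as in the induced Irf4. No WT group carries a DOX label, so drug and gene cannot be told apart here or at day 3 below. At day 1 no member was called at low DOX, where 0% of all genes were called, and every member lay within -0.04 to 0.08. At an unadjusted p under 0.05 the count was 0 members as well, and without the 2 arrays whose Irf4 reading goes against the label it was again 0 called. At high DOX 0 were higher and 1 lower, where 1.26% of all genes were higher and 1.49% lower. The 1 gene was Atm, which read 10.92, 10.99 and 10.79 at high and 11.33, 11.29 and 11.15 at zero DOX, without overlap (-0.36 ± 0.09, adjusted p = 0.029). That call was lost without those 2 arrays. The members' median at high DOX was 0.11, and 23 members lay above and 2 below zero DOX without overlap, where 18.3% of all genes did not overlap. With the replicate number as a block 1 member was higher at high DOX. At an unadjusted p under 0.05 the count at high DOX was 7 members. The share of all genes at that threshold is not given here for either dose, so no result is read from these unadjusted counts.

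**Figure D3:**
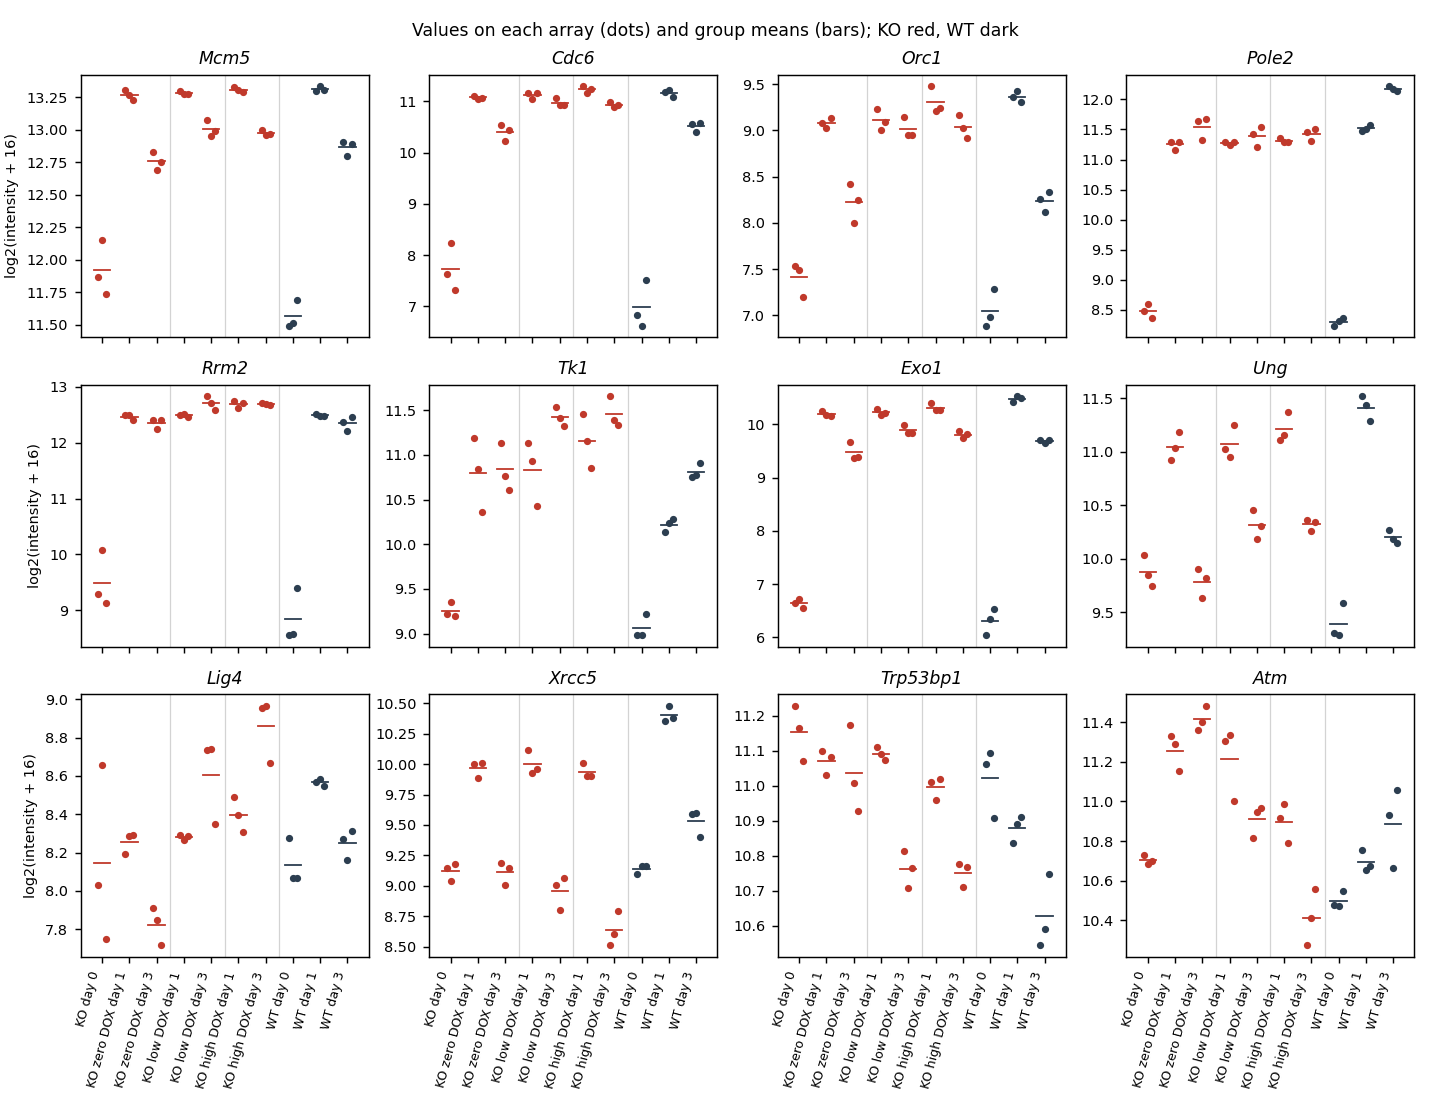
Log2(intensity + 16) of 12 members on each of the 30 arrays (dots, replicates 1 to 3 from left to right in each group) with group means (bars); KO groups are red and stand left of WT groups, which are dark. Orc1, Lig4 and Ung stand higher with low or high DOX than with zero DOX at day 3, Atm and Xrcc5 stand lower with high DOX, and Pole2 is below WT at day 3 at every dose.

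At day 3 both doses separated from zero DOX. At low DOX 30 members were higher and 2 lower than at zero DOX, where 17.6% of all genes were higher and 18.2% lower. At high DOX 29 were higher and 3 lower, where 24.4% of all genes were higher and 24.2% lower. The members' median was 0.29 at low DOX, against -0.03 over all genes, and 0.27 at high DOX, against 0.00 over all genes. Without overlap, 36 members lay above and 2 below zero DOX at low DOX, where 44.6% of all genes did not overlap. At high DOX 33 lay above and 6 below, where 55.7% of all genes did not overlap. Both comparisons share the KO zero DOX day 3 arrays, so their values are given side by side and not as 2 separate results. Without KO zero DOX day 3 replicate 2, whose mean over the members was the lowest of its group, the higher counts were 23 at low and 21 at high DOX.

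By the chosen probe sets, each of the 11 licensing genes was higher at both doses. Orc1 read 9.14, 8.95 and 8.95 at low and 9.17, 9.03 and 8.92 at high DOX, against 8.41, 8.00 and 8.25 at zero DOX. Every DOX array lay above every zero DOX array, and the differences were 0.79 ± 0.11 and 0.82 ± 0.11 (adjusted p = 6.7e-06 and 1.4e-06). Another Orc1 set was higher by less. That set differed by 0.24 (adjusted p = 0.019) at low and 0.34 (adjusted p = 0.00084, over all tested sets) at high DOX. Cdc6 read 11.07, 10.93 and 10.94 at low and 10.99, 10.88 and 10.93 at high DOX, above zero DOX without overlap (0.57 and 0.52), but both calls were lost without KO zero DOX replicate 2, as were both calls for Mcm3 and for Gmnn. Cdt1 read 11.90, 11.87 and 11.86 at low and 11.95, 11.95 and 11.87 at high DOX, above its zero DOX arrays (0.39 and 0.43). Mcm5 read 13.08, 12.96 and 12.99 at low and 12.99, 12.96 and 12.97 at high DOX, with differences of 0.25 and 0.22, and its high DOX call was lost under 3 of 19 alternatives. The other tested Mcm5 sets were not called at high DOX (0.17, adjusted p = 0.21, and 0.07, adjusted p = 0.55, over all tested sets). At low DOX they differed by 0.26 (adjusted p = 0.073) and 0.35 (adjusted p = 0.0021). Another Mcm7 set was not called at high DOX either (0.18, adjusted p = 0.075).

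Of the 4 helicase activation genes, 4 were higher at low and 3 at high DOX, with Cdc45 at 0.58 ± 0.12 and 0.69 ± 0.12. The second Cdc45 probe set was not called at low (-0.01, adjusted p = 0.92) or high DOX (0.10, adjusted p = 0.18, over all tested sets). Gins1 read 10.22, 10.17 and 10.25 at low and 10.28, 10.24 and 10.31 at high DOX, above zero DOX without overlap (0.44 and 0.50). Among polymerase and primase genes 4 of 8 were higher at low and 3 at high DOX, Pold2 by 0.50 and 0.42. Pole2, low in KO cells without DOX, read 11.43, 11.21 and 11.54 at low and 11.46, 11.31 and 11.51 at high DOX and was not called (-0.15, adjusted p = 0.16, and -0.11, adjusted p = 0.27).

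Rfc4 read 11.09, 10.98 and 11.06 at low and 11.07, 11.12 and 11.17 at high DOX, above all zero DOX arrays (0.52 ± 0.053 and 0.60 ± 0.053). Pcna read 13.73, 13.76 and 13.75 at low and 13.74, 13.71 and 13.71 at high DOX and was not called (0.07 and 0.05, with 95% intervals of -0.02 to 0.16 and -0.04 to 0.14). In the deoxynucleotide group Tk1 read 11.53, 11.41 and 11.32 at low and 11.65, 11.39 and 11.34 at high DOX. Its groups stood above the zero DOX arrays, which spread widely, and the low DOX call was lost without KO zero DOX replicate 3 or low DOX replicate 1 (0.58 ± 0.18 and 0.62 ± 0.18). Rrm2 read 12.83, 12.70 and 12.59 at low and 12.72, 12.70 and 12.67 at high DOX and lay above zero DOX without overlap, yet neither difference was called (0.35, adjusted p = 0.13, and 0.34, adjusted p = 0.13). The spread pooled over groups includes day 0, where the standard deviation of Rrm2 was 0.51 in KO and 0.48 in WT cells. At day 3 it was 0.09 at zero, 0.12 at low and 0.02 at high DOX.

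Ung read 10.46, 10.19 and 10.31 at low and 10.36, 10.26 and 10.35 at high DOX, so that every DOX array lay above every zero DOX array (0.53 ± 0.10 and 0.54 ± 0.10, adjusted p = 0.00027 and 0.00012). Exo1 read 9.99, 9.83 and 9.84 at low and 9.88, 9.74 and 9.81 at high DOX, with differences of 0.41 and 0.33. Msh6 was not called and overlapped zero DOX (-0.01 and 0.16). In the recombination group Brca1 read 10.62, 10.44 and 10.42 at low and 10.72, 10.56 and 10.60 at high DOX, above zero DOX without overlap (0.41 ± 0.11 and 0.55 ± 0.11). Chek1 read 10.30, 9.98 and 10.08 at low and 10.10, 10.15 and 10.13 at high DOX; it was called at high DOX (0.34, adjusted p = 0.04) and not at low (0.33, adjusted p = 0.059), and the high DOX call was lost under 7 of 19 alternatives.

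The end-joining and break-response genes split in direction. Lig4 read 8.73, 8.74 and 8.35 at low and 8.96, 8.96 and 8.67 at high DOX, all above zero DOX, with differences of 0.78 ± 0.14 and 1.04 ± 0.14 (adjusted p = 0.00015 and 1.6e-06). Xrcc6 was higher by 0.42 and 0.41. Its Ku partner Xrcc5 read 9.01, 8.80 and 9.07 at low and 8.51, 8.60 and 8.79 at high DOX and was lower at high DOX (-0.48 ± 0.076, adjusted p = 1.4e-05), with -0.15 (adjusted p = 0.12) at low.

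Atm read 10.82, 10.95 and 10.96 at low and 10.27, 10.41 and 10.56 at high DOX, below every zero DOX array at both doses (-0.50 ± 0.09 and -1.001 ± 0.09, adjusted p = 0.00012 and 2.4e-09). Trp53bp1 read 10.81, 10.71 and 10.77 at low and 10.78, 10.71 and 10.77 at high DOX and was lower than zero DOX at both (-0.27 and -0.28). Between the doses, high against low DOX, 0 members were higher and 2 lower, where 6.69% of all genes were higher and 6.09% lower. These were Atm (-0.50 ± 0.09, adjusted p = 0.00052) and Xrcc5 (-0.33 ± 0.076, adjusted p = 0.0054), and the Xrcc5 call was lost without KO high DOX replicate 1. The other 46 members were not called between the doses.

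Markers of other cells moved with the dose. Against zero DOX, 5 of 5 plasma cell markers were higher at both doses, the sum running from 19300 to 25400 at low and 28700 to 32000 at high DOX, against 7250 to 8330 at zero DOX. Of 12 myeloid markers 8 were lower at low and 10 at high DOX (3400 to 5460 and 2890 to 3390, against 6510 to 11400 at zero DOX). The NK cell sum was 3410 to 6170 at low and 841 to 1540 at high DOX, against 4560 to 8880 at zero DOX. The megakaryocyte and platelet sum was 819 to 1090 at low and 674 to 720 at high DOX, against 2480 to 3470 at zero DOX. Of the 6 B cell markers 5 were lower at low and 6 at high DOX. The part of these cells in the members' differences was not tested.

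**Figure D4:**
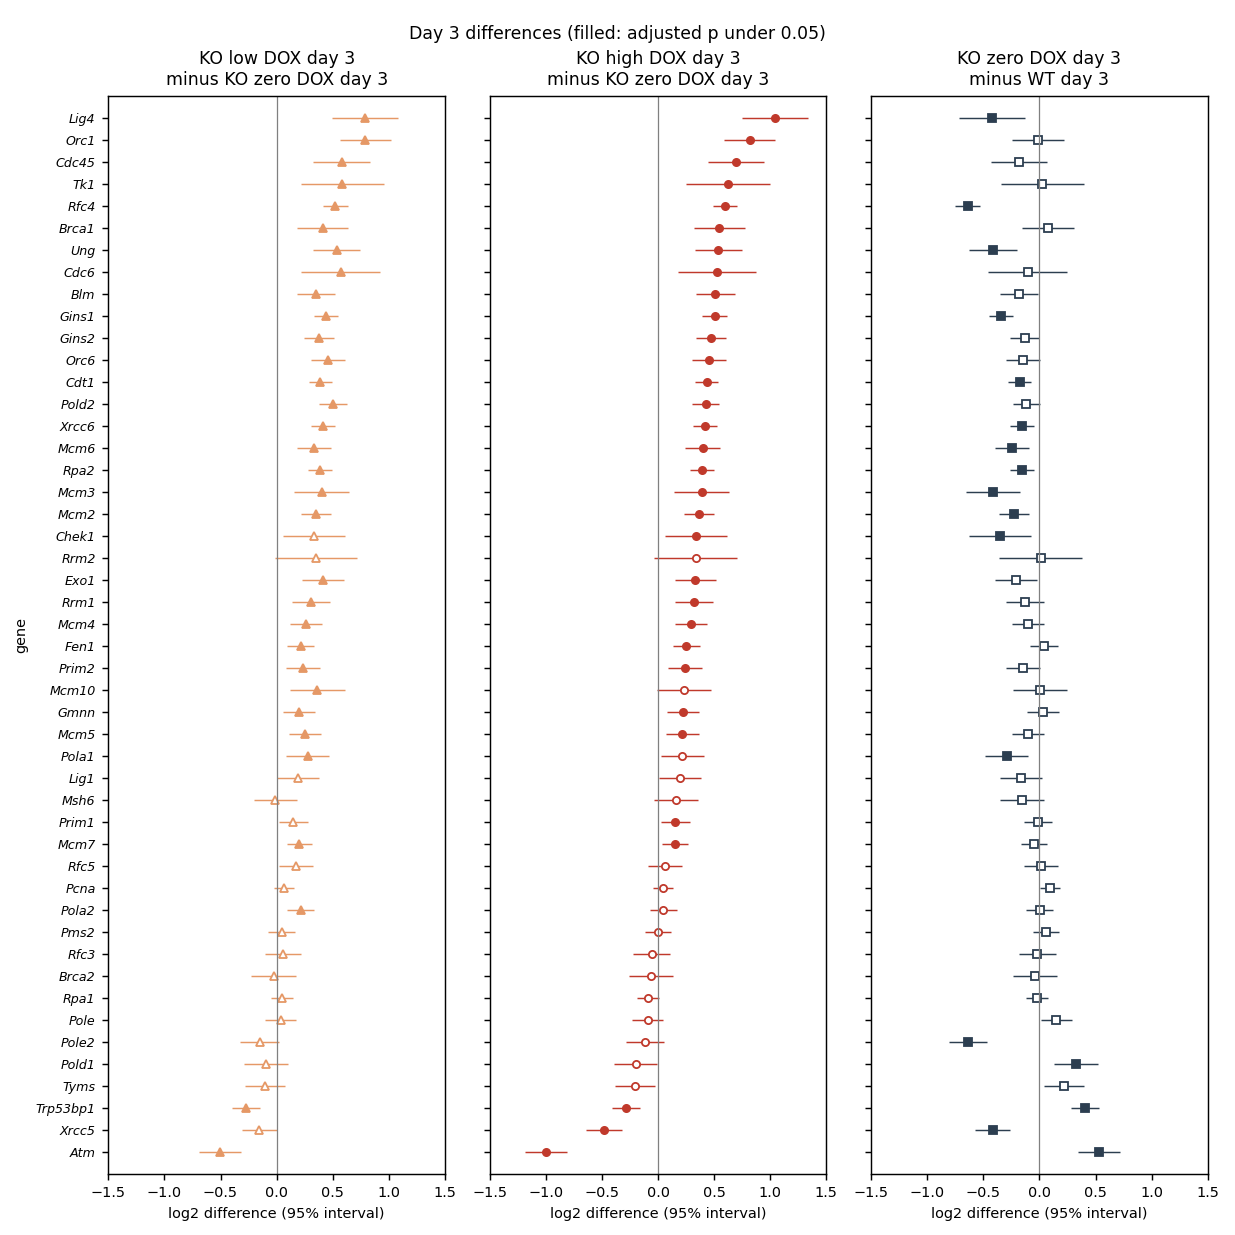
Log2 differences of the 48 genes at day 3 with 95% intervals, for low DOX minus zero DOX (left), high DOX minus zero DOX (middle) and KO zero DOX minus WT (right); filled symbols have an adjusted p under 0.05. Lig4 and Orc1 lead the DOX panels on the positive side and Atm on the negative side, while Rfc4 and Pole2 are lowest and Atm highest in the KO against WT panel.

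The KO cells with DOX were also set against WT cells at day 3, a comparison in which both the drug and the genotype differ and cannot be told apart. At low DOX 19 members were higher and 2 lower, where 18.9% of all genes were higher and 15.3% lower. At high DOX 17 were higher and 3 lower, where 22.1% of all genes were higher and 19% lower. Orc1 was above WT at both doses (0.78 ± 0.11 and 0.80 ± 0.11), as were Tk1 (0.61 and 0.65), Brca1 (0.49 and 0.62) and Cdc45 (0.40 and 0.51). Lig4 was above WT at high DOX (0.61) and differed by 0.36 (adjusted p = 0.054) at low. Pole2 (-0.79 and -0.75) and Xrcc5 (-0.57 and -0.90) were below WT at both doses, and Atm (-0.47) at high DOX. Rfc4 was not called against WT (-0.12 and -0.04, with 95% intervals of -0.23 to -0.01 and -0.15 to 0.07). Without WT day 3 replicate 2 the higher count at low DOX was 12 and Cdc45 was no longer called. Markers of other cells differed as well. At low DOX 4 of 4 NK cell (3410 to 6170 in KO low DOX and 1270 to 1940 in WT cells), 4 of 12 myeloid, 2 of 6 T cell and 2 of 5 plasma cell markers were higher than in WT cells, and 1 myeloid, 1 dendritic cell and 1 megakaryocyte and platelet marker lower. At high DOX 4 of 5 plasma cell (28700 to 32000 in KO high DOX and 24800 to 25700 in WT cells) and 4 of 6 T cell markers were higher and 4 of 6 B cell markers lower (40200 to 45700 in KO high DOX and 55500 to 57100 in WT cells). Of the rest at high DOX, 1 myeloid marker was higher, and 1 myeloid, 1 dendritic cell and 2 of 4 megakaryocyte and platelet markers were lower. Their part in the result was not tested.

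At day 1, KO high DOX cells had 8 members higher and 4 lower than WT cells, where 29.6% of all genes were higher and 9.76% lower. Tk1 was highest, at 11.46, 11.15 and 10.85 in KO high DOX and 10.14, 10.24 and 10.28 in WT cells (0.94 ± 0.18, adjusted p = 0.00033), without overlap. Xrcc5 had the largest negative difference (-0.46 ± 0.076). Without overlap, 16 members lay above and 6 below WT, where 56.7% of all genes did not overlap. Without WT day 1 replicate 2 the counts were 2 higher and 1 lower, and centring the arrays, which moved all genes by -0.12, gave 1 higher and 7 lower. Beside these, 6 of 12 myeloid and 6 of 6 T cell markers were higher in KO high DOX cells, with 1 plasma cell, 1 erythroid and 1 dendritic cell marker, while 2 of 5 plasma cell and 1 dendritic cell marker were lower. Their part in the result was not tested.

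**Figure D5:**
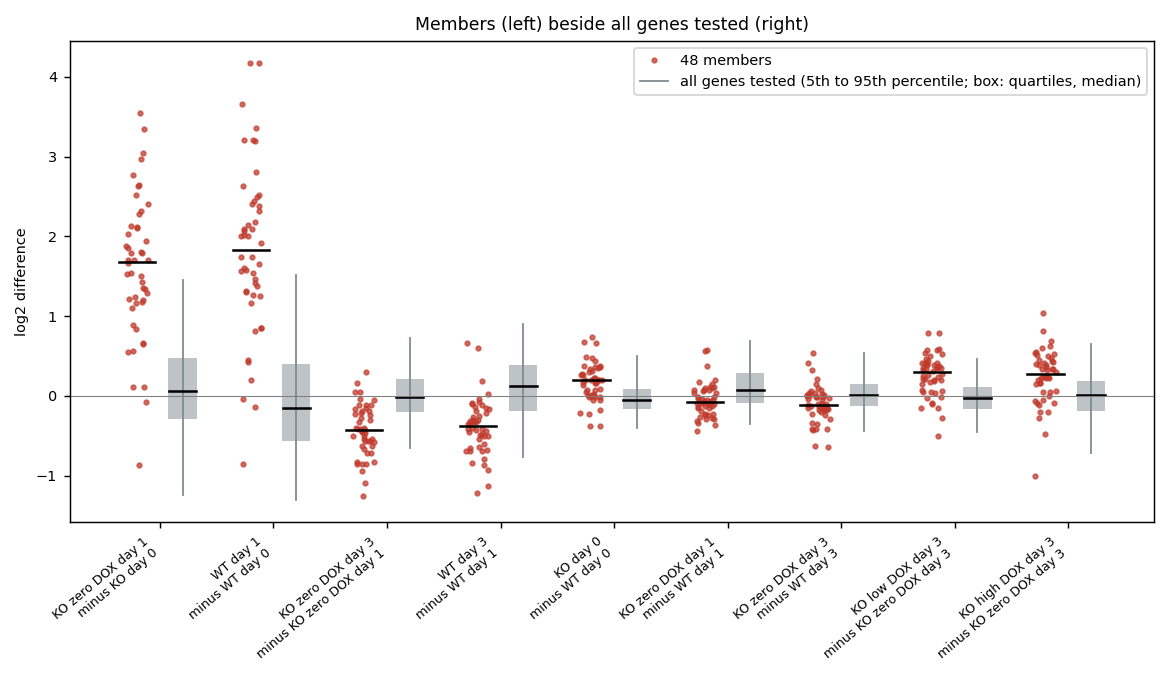
Log2 differences of the 48 genes (red dots, with their median as a bar) beside all 12183 genes tested (grey, box from the lower to the upper quartile with the median, line from the 5th to the 95th percentile) in 9 comparisons. The members lie far above the other genes on the first day in both genotypes, below them from day 1 to day 3, and above them at day 3 with low or high DOX against zero DOX.

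A further list of 55 replication and repair genes that are no members, 47 of which were tested, was read beside the members. In it 40 rose and 2 fell in KO zero DOX cells on the first day, where 39.8% of all genes rose and 30.1% fell. In WT cells 40 rose and 4 fell, where 33.9% of all genes rose and 47.6% fell. Rad51ap1 (2.85 in KO and 3.64 in WT cells), Rad54l (2.90 and 3.05) and Clspn (2.49 and 2.93) rose most. At day 3, against zero DOX, 12 were higher and 4 lower at low DOX, where 17.6% of all genes were higher and 18.2% lower. At high DOX 12 were higher and 8 lower, where 24.4% of all genes were higher and 24.2% lower. The share of the list that was higher at high DOX was thus close to that of all genes. The list's medians were 0.06 at low and 0.05 at high DOX, against -0.03 and 0.00 over all genes. Lig3 (0.49 and 0.67), a ligase of base excision repair, and Tipin (0.57 and 0.62), which steadies the fork, were the highest at both doses, and Pold4 (-0.58 and -1.08), the small subunit of polymerase delta, the lowest.

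Among 13 E2F and pocket protein genes, 7 rose and 4 fell in KO zero DOX cells on the first day, where 39.8% of all genes rose and 30.1% fell. In WT cells 7 rose and 6 fell, where 33.9% of all genes rose and 47.6% fell. The shares of the list that fell were close to those of all genes. E2f7 rose by 2.25 in KO and 2.60 in WT cells and E2f8 by 1.77 and 2.05; both encode repressors that shut replication genes down again. Tfdp1, the dimer partner of E2F proteins, rose by 1.51 in KO and 2.43 in WT cells. Rb1, a pocket protein that holds E2F factors in check, was lower at day 1, by log2 differences of -1.22 in KO and -1.31 in WT cells. In WT cells E2f6 read 8.12, 8.14 and 7.85 at day 0 and 10.21, 10.11 and 10.01 at day 1. It was also higher at day 1 in KO zero DOX cells, without overlap. E2f2 in WT cells read 11.05, 10.91 and 10.83 at day 0 and 10.31, 10.14 and 10.40 at day 1. The KO arrays of E2f2 overlapped between these days, as did those of E2f1 in both genotypes.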

How the data were processed

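Per the series' design text, the authors hybridised RNA of each culture to Affymetrix whole-genome mouse arrays and normalized the probe set signals with D-Chip (perfect-match probes alone); MAS5 is named in the submitters' processing notes without a role. The deposited values are linear intensities of 45101 probe sets on 30 arrays, of which 64 controls were left out. From these, log2(intensity + 16) was computed and, for 34945 sets with 1 gene symbol, the set with the highest mean was kept per gene where at least 3 arrays exceeded the table's median of 188.245. R 4.3.3 with limma 3.58.1 (lmFit, eBayes, 1 mean per group, all 30 arrays) tested 12183 genes with 20 residual degrees of freedom and Benjamini-Hochberg adjustment per comparison, a procedure also tested on simulated data. The replicate numbers come from the labels: same-numbered arrays deviated together in all 21 pairs of KO groups (r = 0.3 to 0.858), so they pair the KO arrays, but not in WT pairs (-0.0532 to 0.235). Each replicate is a separate mouse, and 1 of 3 was run at another time, without saying which. Alternatives changed the pseudocount, filter, normalization, probe set choice, weights, variance trend, block, sex term and arrays used. Values on every array are given for a panel of 16 members and for the largest called change each way, and otherwise the largest called changes are named. The members, lists and panel were chosen with earlier results of these data known.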

Additional observations from a re-analysis of the deposited data

Results flagged for a closer look

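Members are given here because their change over time differed between KO zero DOX and WT cells by limma's test of that difference (adjusted p under 0.05). The values are the KO change minus the WT change on the log2 scale, and no explanation was weighed. Over the first day 22 members had a lower and 3 a higher change in KO cells, and from day 1 to day 3 the counts were 4 lower and 2 higher.

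In origin licensing the first-day values were -0.65 for Orc1, -0.35 for Orc6, -0.83 for Cdc6, -0.33 for Gmnn, -0.37 for Mcm4, -0.40 for Mcm5, -0.30 for Mcm6 and -0.30 for Mcm7. A second Orc1 set, as given above, was not called between genotypes at day 0 or day 1. In helicase activation they were -0.58 for Mcm10 and -0.31 for Gins2. Among the polymerases and primase they were -0.40 for Pola1, -0.26 for Prim1 and -0.44 for Pole2. Among the clamp genes Pcna was at -0.28 and Rfc4 at -0.21, while Rfc3 was at 0.56 and Rpa1 at 0.20. In deoxynucleotide supply Rrm1 was at -0.35 and Rrm2 at -0.68. In repair Exo1 was at -0.62, Ung at -0.85 and Chek1 at -0.87. In end joining Xrcc5 was at -0.42 and Xrcc6 at -0.22, while Atm was at 0.36. From day 1 to day 3 the values were -0.25 for Gins1, -0.37 for Pole2, -0.40 for Rfc3, -0.41 for Rfc4, 0.56 for Pold1 and 0.45 for Tyms. Single arrays that stand apart were not tested within the groups of 3.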

How the results depend on the processing

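Over the members' called differences, 8048 results under alternatives kept direction and call, 452 kept direction and lost the call, and 1 turned direction: Trp53bp1 in WT day 1 minus WT day 0, at 0.0193 with arrays centred on their medians. The counts of members that moved by over 1.5 times follow, and the cause was not tested. With centring, WT day 1 minus day 0 had 1 lower, KO zero DOX minus WT at day 1 had 2 higher and 28 lower, the genotype difference of first-day changes had 1 higher, that of the later changes 8 higher and 1 lower, high minus zero DOX at day 1 had 0 lower, and KO high DOX minus WT at day 1 had 1 higher and 7 lower. With array weights, KO zero DOX minus WT had 8 higher and 22 lower at day 1 and 5 higher at day 3, the genotype difference of later changes had 7 higher and 11 lower, day 3 minus day 1 had 2 higher at low and 2 at high DOX, low and high minus zero DOX at day 3 had 5 lower each, high minus low DOX at day 3 had 4 higher and 4 lower, KO high DOX minus WT at day 1 had 16 higher and 8 lower, and KO low DOX minus WT at day 3 had 4 lower. With only the groups compared in the fit, KO minus WT at day 0 had 3 higher and 1 lower, WT day 1 minus day 0 had 1 lower, KO zero DOX day 3 minus day 1 had 0 higher, KO high DOX day 3 minus day 1 had 2 higher, KO zero DOX minus WT at day 1 had 17 lower, high minus zero DOX had 0 lower at day 1 and 5 lower at day 3, and high minus low DOX at day 3 had 1 lower. With sex as a covariate, day 3 minus day 1 had 2 higher at low and 3 at high DOX, KO minus WT at day 0 had 5 lower, the genotype difference of later changes had 4 higher, high minus zero DOX at day 1 had 1 higher, high minus low DOX at day 3 had 4 lower, and KO high DOX minus WT at day 1 had 4 higher and 2 lower.

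With the replicate number as a block, day 3 minus day 1 had 2 higher at low and 2 at high DOX, KO minus WT at day 0 had 5 lower, and high minus zero DOX at day 1 had 1 higher, and no other of 38 counts moved. The block over KO arrays alone, chosen after seeing the data, gave 3 higher in high DOX day 3 minus day 1, 1 higher in high minus zero DOX at day 1 and 5 lower in high minus zero DOX at day 3. A pseudocount of 64 gave 2 higher in high DOX day 3 minus day 1. Without a filter KO high DOX minus WT at day 1 had 5 higher and 1 lower, and with quantile normalization it had 1 lower. A stricter filter, which kept 46 members, gave 1 higher for the later genotype difference and 4 lower for high minus low DOX at day 3. With the mean of a gene's probe sets, day 3 minus day 1 had 2 higher at low and 3 at high DOX, and KO high DOX minus WT at day 1 had 7 lower. Without the 2 arrays that go against their labels, high minus zero DOX at day 1 had 0 lower.

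Leaving out 1 array at a time, the lower count of WT day 1 minus day 0 ran from 1 to 2. The higher count of day 3 minus day 1 ran from 0 to 2 at low and from 1 to 2 at high DOX. KO minus WT at day 0 ran from 13 to 25 higher, KO zero DOX minus WT from 3 to 6 higher at day 1 and from 8 to 15 lower at day 3. The genotype difference ran from 1 to 4 higher for the first day, and from 2 to 4 higher and 2 to 5 lower for the later change. High minus zero DOX at day 1 ran from 0 to 1 lower. KO high DOX minus WT at day 1 ran from 2 to 7 higher and from 1 to 3 lower, and KO low DOX minus WT at day 3 from 12 to 20 higher. With 3 arrays a group, small differences in dim genes could not be resolved.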
